A study of Mus musculus with 4 samples.

Results

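The genes described here are 45 genes of the mitotic cell cycle, listed by name and found in the gene count tables of *Dnmt1* WT and *Dnmt1* KO cells through the GENCODE M21 annotation of the mouse genome. Each of the 45 symbols matched 1 of the 55573 gene identifiers in the tables, and all 45 passed the filter on low counts, so that none is missing from the comparison. They fall into 10 regulators of the G1/S transition, 13 genes of DNA replication, called S-phase genes below, and 22 genes of G2 phase and mitosis, called G2/M genes. The list names genes by function, and no measured value entered its rule, but it was chosen with earlier results of these data known.

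RNA sequencing was made on FACS-enriched cells with tdTomato fluorescence, taken at embryonic day 16 (E16) from the basal telencephalon, which holds the preoptic area (POA). The labels call these cells interneurons derived from *Hmx3*-expressing cells. All animals of both groups carried the *Hmx3-Cre* driver and the *tdTomato* reporter. The KO animals in addition carried *Dnmt1 loxP2* alleles, in which Cre removes exons of the gene encoding DNA methyltransferase 1, the maintenance methyltransferase, and leaves a null allele. Deletion and labelling were thereby limited to cells with a history of *Hmx3* promoter activity, and a sorted cell of another kind with that history would be included. Cells were pooled from 12 WT and 6 KO embryos, and 2 libraries were sequenced per genotype. The labels name these libraries biological replicates, whereas the study's methods speak of technical duplicates from pools, and p-values here measure only the spread between libraries, which may be technical.

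The cell cycle is driven by cyclin-dependent kinases whose cyclin partners are made and destroyed in order. D-type cyclins with CDK4 or CDK6 start the inactivation of the retinoblastoma family, E-type cyclins with CDK2 complete it, and the released E2F factors switch on the genes of DNA replication. Genes of G2 phase and mitosis are switched on later by B-MYB and FOXM1 through a promoter element called CHR. Their promoters often hold CCAAT boxes as well. In the embryonic POA, progenitors of the ventricular zone divide, and the interneurons they give rise to have left the cycle when they migrate. DNMT1 itself acts at replication forks, where UHRF1 brings it to hemimethylated DNA.

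Promoter sequences, which the list did not use, were compared between the groups. RefSeq promoter windows (GRCm38.p6, from 250 bases before to 50 bases after a transcription start) were found for 36 of the 45 genes, as 39 windows. The stretches below are the last 170 bases before the start of 3 G2/M genes, 2 S-phase genes and *Ccnd3*, written 5′ to 3′ on the strand of the gene. *Cdc20*, *Cdk1* and *Ube2c* show the spacing of CHR and CCAAT, *Mcm5* and *Mcm6* show E2F matches, and *Ccnd3*, with its start inside the annotated gene, is shown because its count differed between genotypes. Capitals mark the letters of a CHR element (TTTGAA or TTCGAA), an E2F site (TTTCCCGC, TTTCGCGC, TTTGCCGC or TTTGGCGC) or a CCAAT box, on either strand. In *Mcm5* and in *Mcm6*, a pair of E2F matches on opposite strands overlap in 1 capital run.
Cdc20, chr4:118437344-118437513, minus strand: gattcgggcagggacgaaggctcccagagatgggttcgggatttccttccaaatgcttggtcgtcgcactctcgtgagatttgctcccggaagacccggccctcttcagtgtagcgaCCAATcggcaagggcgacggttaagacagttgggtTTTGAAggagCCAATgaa
Cdk1, chr10:69352913-69353082, minus strand: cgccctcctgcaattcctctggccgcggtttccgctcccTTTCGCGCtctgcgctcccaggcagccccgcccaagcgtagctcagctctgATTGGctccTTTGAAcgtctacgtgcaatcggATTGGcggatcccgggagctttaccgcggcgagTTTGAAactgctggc
Ube2c, chr2:164769759-164769928, plus strand: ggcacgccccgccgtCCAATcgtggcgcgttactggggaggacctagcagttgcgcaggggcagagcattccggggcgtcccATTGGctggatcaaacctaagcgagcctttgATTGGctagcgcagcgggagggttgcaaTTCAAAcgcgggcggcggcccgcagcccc
Mcm5, chr8:75109339-75109508, plus strand: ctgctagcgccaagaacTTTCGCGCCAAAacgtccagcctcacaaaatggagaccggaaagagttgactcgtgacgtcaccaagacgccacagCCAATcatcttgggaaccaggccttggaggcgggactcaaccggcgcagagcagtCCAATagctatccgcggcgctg
Mcm6, chr1:128359706-128359875, minus strand: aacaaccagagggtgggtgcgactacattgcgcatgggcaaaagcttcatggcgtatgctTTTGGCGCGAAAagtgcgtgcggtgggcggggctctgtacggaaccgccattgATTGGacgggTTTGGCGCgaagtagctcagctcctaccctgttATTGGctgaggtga
Ccnd3, chr17:47593297-47593466, plus strand: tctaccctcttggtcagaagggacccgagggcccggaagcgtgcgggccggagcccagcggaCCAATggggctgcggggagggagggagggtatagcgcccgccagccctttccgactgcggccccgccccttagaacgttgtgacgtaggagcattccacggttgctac

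CHR letters stood in 14 of 18 G2/M windows (77.8%), in 2 of 12 S-phase windows (16.7%) and in 1 of 9 windows of G1/S regulators (11.1%), against 19.2% of all 32851 windows. E2F letters stood in 6 of 12 S-phase windows, 2 of 9 windows of G1/S regulators (22.2%) and 1 of 18 G2/M windows (5.56%), so that the S-phase windows had the highest share, against 2.26% of all windows. CCAAT was found in 16 of 18 G2/M windows (88.9%), 9 of 12 S-phase windows (75.0%) and 4 of 9 windows of G1/S regulators (44.4%), against 37.4% of all windows. *Cdk1*, which encodes the kinase of mitotic entry, was the G2/M gene with an E2F match, and it carried 2 CHR and 2 CCAAT matches in the stretch printed above. These are letter matches and not measured binding sites.

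**Figure D1:**
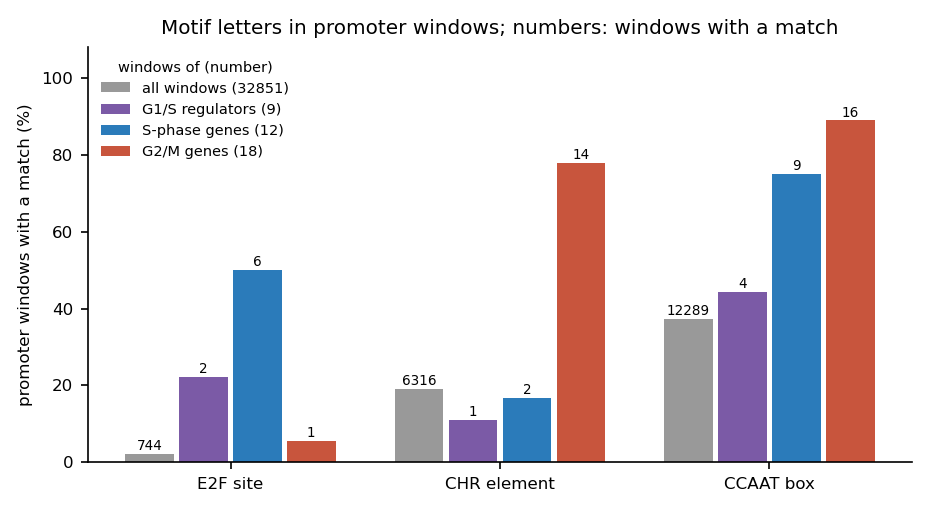
Share of promoter windows (%, y axis) that hold the letters of an E2F site, a CHR element or a CCAAT box, for all windows (grey) and for the windows of G1/S regulators, S-phase genes and G2/M genes; the number above each bar counts windows with a match. CHR letters stand in 14 of 18 G2/M windows and E2F letters in 6 of 12 S-phase windows.

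Library totals ranged from 8075102 to 9995968 counts, so that 3 counts corresponded to 0.294 to 0.372 CPM (counts scaled to library size and TMM factors). Mitochondrial rRNA took 8.66% of the counts of WT 1 and 1.51% to 2.32% of the counts of the other libraries. The WT libraries lay further apart than the KO libraries, with a biological coefficient of variation of 0.234 against 0.103. *Dnmt1*, the targeted gene, had 3103 and 4557 counts in the WT and 2383 and 2552 in the KO libraries, a log2 fold change of -0.56 (SE 0.14, edgeR adjusted p = 0.0511, DESeq2 adjusted p = 0.00843). This count covers the whole gene and does not separate the deleted exons. Markers of the labelled cells were present, with *Hmx3* at 633 and 919 WT counts and 604 and 851 KO counts, and *Gad2* at 2027 and 1868 WT counts and 1508 and 1530 KO counts, whereas *Lhx1* had 5 to 27 counts per library.

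Cycle genes were well represented in the sorted cells. Per kilobase of exon (FPKM, TMM-scaled CPM divided by exonic length in kb), the 45 genes lay between the 15.0th and the 98.9th percentile of the 16832 genes tested, with a median at the 55.3rd. The highest level was that of *Cdk4*, the kinase partner of the D-type cyclins, at 103 ± 20.7 FPKM in WT and 83.5 ± 2.35 in KO (SD, n = 2). *Mki67*, the gene of the proliferation antigen Ki-67, followed at 21.5 ± 0.170 FPKM in WT. The helicase subunit gene *Mcm7* (16.9 ± 1.34), the topoisomerase gene *Top2a* (15.4 ± 1.85) and *Ccnd1* (15.3 ± 0.740) came next in WT. The WT ranges of mean ± SD of these genes overlapped one another, so their order is uncertain. *E2f2*, a transcription factor of the G1/S switch, was lowest at 0.810 ± 0.246 FPKM.

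Between genotypes, 2 of the 45 genes changed. *Ccnd3*, encoding cyclin D3, rose 1.90-fold in KO cells, and *Ccne2*, encoding cyclin E2, fell to 0.312 of its WT level. None of the S-phase or G2/M genes passed the threshold, an adjusted p under 0.05 over all tested genes. The share of 4.44% called among the 45 stands beside 7.9% of all tested genes, of which 7.33% were called higher and 0.57% lower in KO. At an unadjusted p under 0.05, 3 of the 45 genes were found (6.67%), against 22.7% of all tested genes. In 14 of the 45 genes (31.1%) the KO libraries did not overlap the WT libraries, 7 above and 7 below, against 53.5% of all tested genes, 28.3% above and 25.2% below. The median absolute log2 fold change was 0.14 for the 45 genes and 0.31 for all tested genes.

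**Figure D2:**
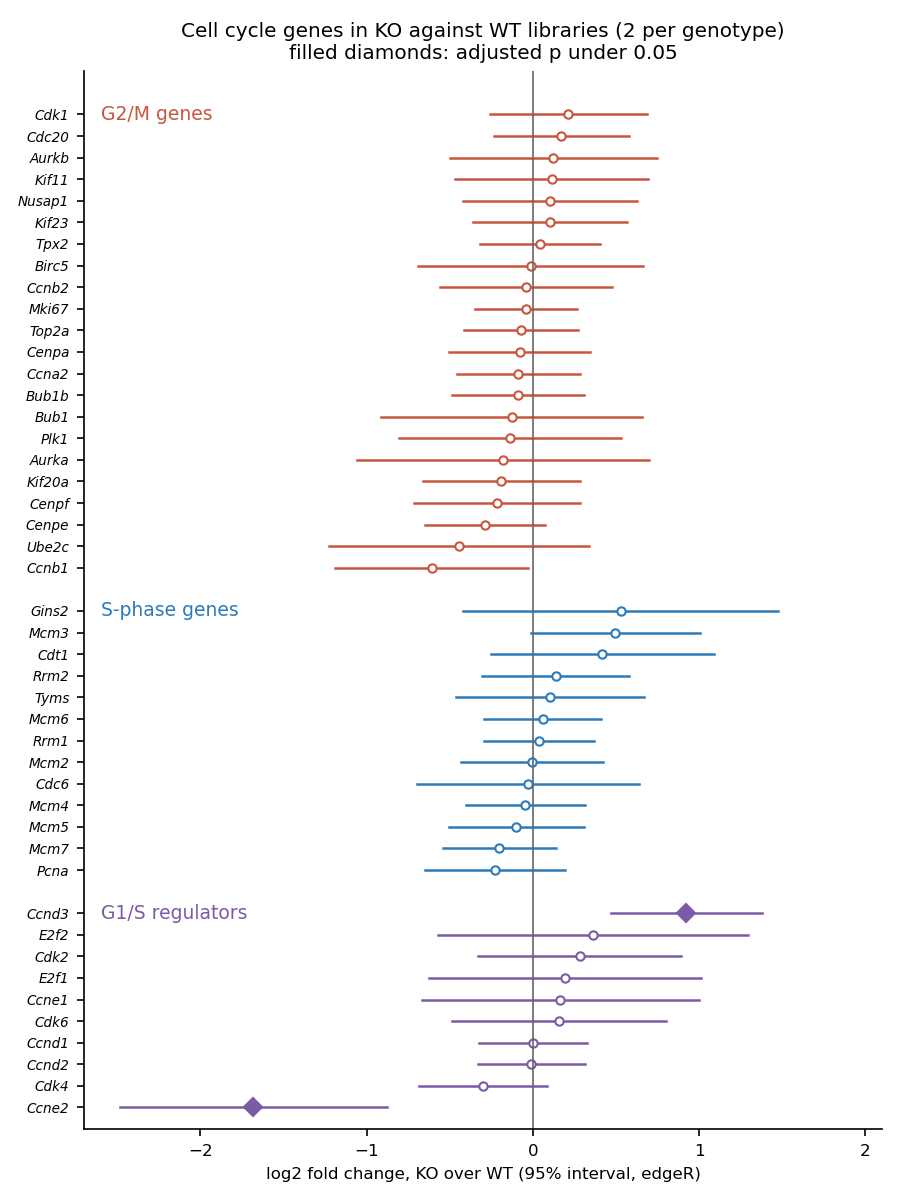
Log2 fold change of KO over WT (x axis) with its 95% interval for each of the 45 genes, by group; filled diamonds mark an adjusted p under 0.05. *Ccnd3* (0.92) and *Ccne2* (-1.68) lie apart from 0, and 42 of the 45 intervals cover 0.

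A gene that missed the threshold is not shown to be unchanged, and the intervals give what the 4 libraries could exclude. The 95% interval of the log2 fold change covered 0 in 42 genes, lay within 1 log2 unit of 0 in 35 genes and within 0.5 in 11 genes. In bulk RNA, fewer cells of a type and less RNA per cell cannot be told apart.

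Of the 10 G1/S regulators, 1 rose, 1 fell and 8 did not pass the test, and their median log2 fold change was 0.16, beside -0.03 for all tested genes. *Ccnd3* had 128 and 184 counts in the WT and 246 and 319 in the KO libraries. This corresponded to 17.0 ± 1.51 CPM in WT and 32.2 ± 4.16 in KO (SD, n = 2), and both KO libraries lay above both WT libraries. The log2 fold change was 0.92 (SE 0.20, 95% interval 0.47 to 1.38, edgeR adjusted p = 0.0262). Without KO 2 it was no longer called (log2 fold change 0.79, adjusted p = 0.303, 5.37% of all tested genes called), whereas it was called without KO 1 (6.0% called) and without either WT library.

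*Ccne2* had 117 and 93 counts in WT and 32 in each KO library. It stood at 11.8 ± 3.83 CPM in WT and 3.66 ± 0.198 in KO, and the lower WT library exceeded both KO libraries. The log2 fold change was -1.68 (SE 0.35, 95% interval -2.48 to -0.88, edgeR adjusted p = 0.0223), and *Ccne2* was called with each library left out in turn. Its exons overlap those of *Ints8* on the opposite strand over 17.4% of their length, and *Ints8* had 713 and 545 WT counts and 529 and 530 KO counts. Those of *Ccnd3* overlap *Bysl* over 4.11%. Strand handling of the counts is not given in the sources used here, so reads of such gene pairs cannot be told apart.

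The other D-type cyclins showed no such difference. *Ccnd1* (cyclin D1) had 561 and 761 WT counts and 599 and 662 KO counts, or 72.1 ± 3.48 and 72.1 ± 1.20 CPM. Its log2 fold change was -0.00 (SE 0.14), with an interval of -0.33 to 0.32. *Ccnd2* (cyclin D2) had 840 and 1024 WT counts and 832 and 948 KO counts, or 102 ± 2.78 and 102 ± 3.88 CPM, and a log2 fold change of -0.01 (SE 0.14, 95% interval -0.33 to 0.32). Both stayed within a range that excludes a change of the size fitted for *Ccnd3*. Per kilobase of exon, *Ccnd3* made up 6.54% and 7.20% of the summed D-type cyclin level in WT 1 and WT 2, and 11.5% and 13.1% in KO 1 and KO 2. *Ccnd1* was the largest part in every library, at 50.6% to 55.5%. The share of *Ccne2* in the E-type cyclins was 74.2% and 55.0% in the WT and 34.1% in each KO library, the rest being *Ccne1*. *Ccne1* itself had 31 and 58 counts in WT and 47 in each KO library (log2 fold change 0.17, 95% interval -0.66 to 1.00). The difference between paralogs was not tested.

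Among the kinases, *Cdk4* had 2306 and 3890 WT counts and 2327 and 2414 KO counts. At 334 ± 67.1 CPM in WT and 271 ± 7.63 in KO it was the gene with the highest CPM, and the KO values lay below the lower WT value by a small margin. Its log2 fold change was -0.30 (SE 0.17, edgeR adjusted p = 0.330). Without WT 1, a fit that called 21.3% of all tested genes, it became -0.50 (adjusted p = 0.000367), and without WT 2 it was -0.09 (adjusted p = 0.718). When gene length and GC content were corrected for, which called 16.4% of all tested genes, *Cdk4* was also called lower (-0.37, adjusted p = 0.0354), and 19.7% of its exonic length overlaps *Tspan31* on the opposite strand. The remaining regulators *Cdk2*, *Cdk6*, *E2f1*, *E2f2* and *Ccne1* had fitted values between 0.16 and 0.36, and their WT and KO libraries overlapped in each case.

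**Figure D3:**
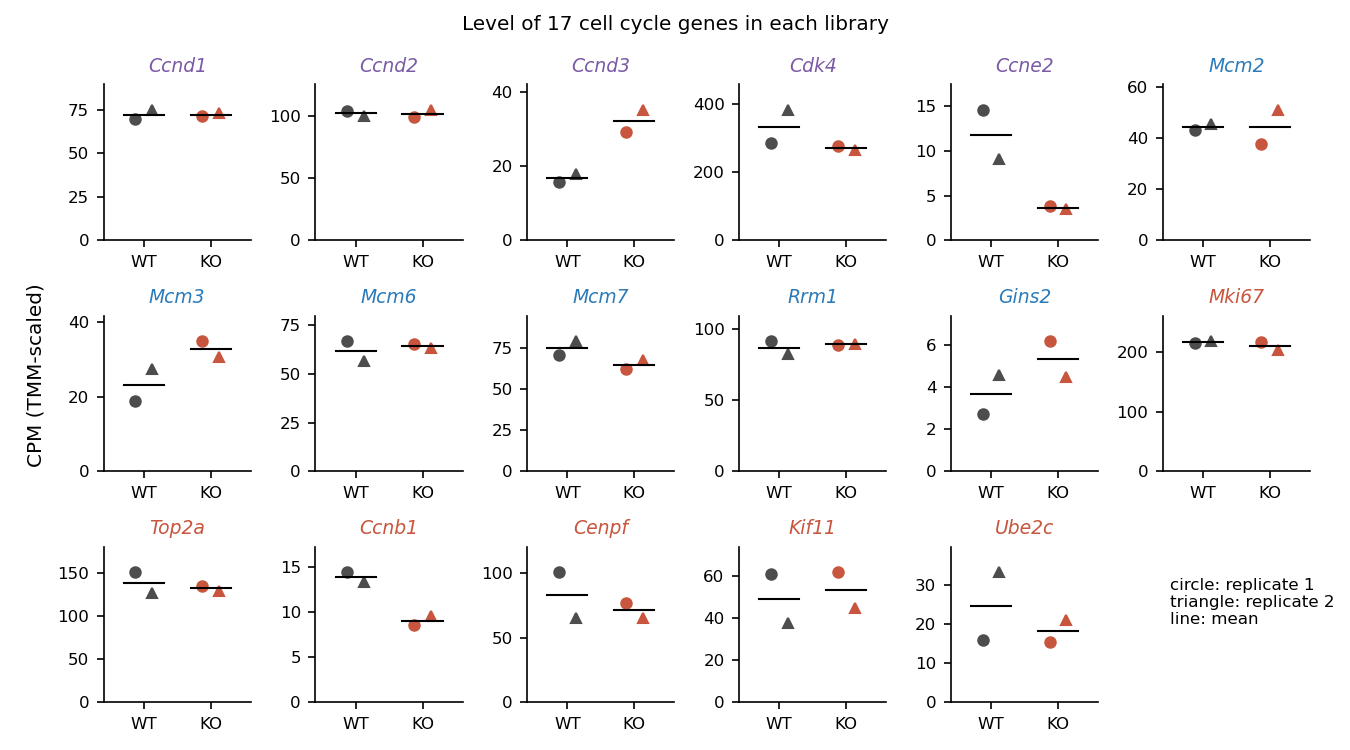
TMM-scaled CPM (y axis, from 0) of 17 cycle genes in each library, with WT in grey and KO in red, circles for replicate 1, triangles for replicate 2 and a line at the mean of each genotype; titles are coloured purple for G1/S regulators, blue for S-phase genes and red for G2/M genes. *Ccnd3* and *Ccne2* separate by genotype, whereas *Ube2c*, *Cenpf* and *Kif11* differ more between the WT libraries than between genotypes.

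Among the genes of DNA replication no change passed the test. None of the 13 S-phase genes was called by edgeR, by DESeq2 (8.87% of all tested genes called) or by limma-voom (7.81%), and none had an unadjusted p under 0.05 with edgeR. Their median log2 fold change was 0.04, with values from -0.23 (*Pcna*, the sliding clamp of the polymerases) to 0.53 (*Gins2*), and 4 of the 13 intervals lay within 0.5 log2 units of 0. *Mcm2*, *Mcm6* and *Mcm7* encode subunits of the replicative helicase. *Mcm2* had 347 and 463 WT counts and 315 and 460 KO counts, or 44.2 ± 1.62 and 44.1 ± 9.34 CPM, with a log2 fold change of -0.00 (SE 0.19). *Mcm6* had 538 and 580 WT counts and 549 and 575 KO counts, or 61.8 ± 7.04 and 64.3 ± 1.37 CPM, with a log2 fold change of 0.06 (SE 0.15). For both, the KO libraries fell within or around the range of the WT libraries.

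*Mcm7*, another helicase subunit gene, had 570 and 808 WT counts and 527 and 614 KO counts. It stood at 75.0 ± 5.95 CPM in WT and 65.1 ± 3.51 in KO, and each KO value was under each WT value (log2 fold change -0.20, SE 0.15, edgeR adjusted p = 0.455). *Rrm1*, which encodes the large subunit of ribonucleotide reductase, had 737 and 847 WT counts and 750 and 816 KO counts, or 87.2 ± 6.01 and 89.5 ± 0.498 CPM. Its log2 fold change of 0.04 (SE 0.14) had an interval of -0.29 to 0.37, among the narrowest of the group.

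The largest fitted values of the S-phase genes belonged to *Mcm3* and *Gins2*. *Mcm3*, also a helicase subunit gene, had 152 and 279 WT counts and 293 and 278 KO counts, or 23.1 ± 5.99 and 32.7 ± 2.98 CPM. Both KO libraries lay above both WT libraries, with a log2 fold change of 0.50 (SE 0.22, 95% interval -0.01 to 1.00, edgeR adjusted p = 0.230), which became 0.78 (adjusted p = 0.00222) without WT 2, where 23.3% of all tested genes were called, and 0.25 (adjusted p = 0.376) without WT 1. *Gins2*, a subunit gene of the GINS complex that joins the helicase, had 22 and 47 WT counts and 52 and 41 KO counts, or 3.67 ± 1.33 and 5.35 ± 1.18 CPM, and a log2 fold change of 0.53 (SE 0.41, adjusted p = 0.488). Its groups overlapped, the value ranged from 0.20 to 0.95 with a library left out, and 67.3% of its exonic length lies opposite *Gse1*. *Cdt1*, which loads the helicase with *Cdc6*, had 49 and 79 WT counts and 79 and 83 KO counts (0.42, 95% interval -0.25 to 1.09), and *Cdc6* had a value of -0.03.

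Among the G2/M genes, too, no change passed the test. None of the 22 was called by edgeR, DESeq2 or limma-voom, and 1, *Ccnb1*, had an unadjusted p under 0.05 with edgeR. The median log2 fold change was -0.08, with values from -0.61 to 0.21, 7 genes had positive and 15 negative values, and 5 of the 22 intervals lay within 0.5 log2 units of 0. *Mki67* had 1732 and 2219 WT counts and 1827 and 1842 KO counts, or 216 ± 1.71 and 210.0 ± 10.1 CPM. Its log2 fold change of -0.04 (SE 0.13) had an interval of -0.35 to 0.27. *Top2a*, encoding the topoisomerase that untangles sister chromatids, had 1213 and 1296 WT counts and 1134 and 1174 KO counts, or 139 ± 16.7 and 132 ± 3.90 CPM, with a value of -0.07 (SE 0.15, 95% interval -0.42 to 0.27). For these general markers of cycling cells, a change by 1 log2 unit lies outside the interval.

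*Ccnb1*, encoding the mitotic cyclin B1, had the largest fitted change of the group. It had 116 and 136 WT counts and 72 and 87 KO counts, or 13.9 ± 0.759 and 9.07 ± 0.722 CPM, and each KO value was under each WT value. The log2 fold change was -0.61 (SE 0.25, 95% interval -1.19 to -0.03), and the edgeR adjusted p of 0.201 missed the threshold. For its kinase partner and its paralog the fitted values were nearer 0: *Cdk1* had 156 and 210 WT counts and 217 and 187 KO counts (0.21, 95% interval -0.26 to 0.69), and *Ccnb2* (cyclin B2) had 156 and 204 in WT and 137 and 199 in KO (-0.04, 95% interval -0.56 to 0.47).

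*Cenpf*, a kinetochore protein gene, had 809 and 667 WT counts and 649 and 593 KO counts, or 82.9 ± 24.8 and 71.2 ± 8.38 CPM, with a log2 fold change of -0.22 (SE 0.22). *Kif11*, which encodes the motor that pushes spindle poles apart, had 488 and 384 WT counts and 517 and 404 KO counts, or 49.1 ± 16.2 and 53.0 ± 12.0 CPM, with a value of 0.11 (SE 0.25). *Ube2c*, the ubiquitin-conjugating enzyme gene of the anaphase-promoting complex, had 129 and 338 WT counts and 129 and 190 KO counts, or 24.6 ± 12.1 and 18.1 ± 3.95 CPM, with a value of -0.44 (SE 0.34). In each of these the WT libraries differed by more than the genotypes did. Calls appeared for some of them when 1 WT library was left out, the lone library being assumed to vary like the others. Without WT 1, *Ube2c* (-0.87, edgeR adjusted p = 0.000267) and *Aurka* (-0.66, adjusted p = 0.0490) were lower and *Kif11* higher (0.48, adjusted p = 0.0282). Without WT 2, *Cenpf* was lower (-0.51, adjusted p = 0.00517), whereas *Aurka* (0.54), *Ube2c* (0.17) and *Kif11* (-0.21) had the opposite sign and were not called, and *Cenpf* was at 0.12 without WT 1.

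The spread between replicates differed from gene to gene within a group. *Aurka*, encoding the spindle kinase Aurora A, had 62 counts in WT 1 and 181 in WT 2, a log2 ratio of 1.15, and 91 and 107 in KO. *Ube2c* (1.03), *Birc5* (0.59) and *Plk1* (0.58) were also higher in WT 2, whereas *Bub1* (-0.87), *Kif11* (-0.68), *Cenpf* (-0.62) and *Nusap1* (-0.54) were lower there. The first 4 genes have exonic lengths of 2199 to 3402 bases and the latter 4 of 4059 to 15433 bases. Across the 45 genes, Spearman's rho of exonic length with the WT 2 over WT 1 ratio was -0.58, and it was -0.50, -0.48 and -0.64 within the G1/S regulators, S-phase genes and G2/M genes. With the KO 2 over KO 1 ratio it was -0.15 over the 45 genes, and the groups differed in sign, with 0.66, 0.33 and -0.63. These are descriptions across genes that share the same libraries. With the KO over WT fold change the rho over the 45 genes was 0.11, and with the fold change corrected for length and GC content it was 0.40. That correction moved the G2/M median to -0.0025 and kept the calls of *Ccnd3* and *Ccne2*. The median absolute log2 ratio was 0.18 between WT libraries and 0.13 between KO libraries for the 45 genes, beside 0.31 and 0.19 for all tested genes.

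**Figure D4:**
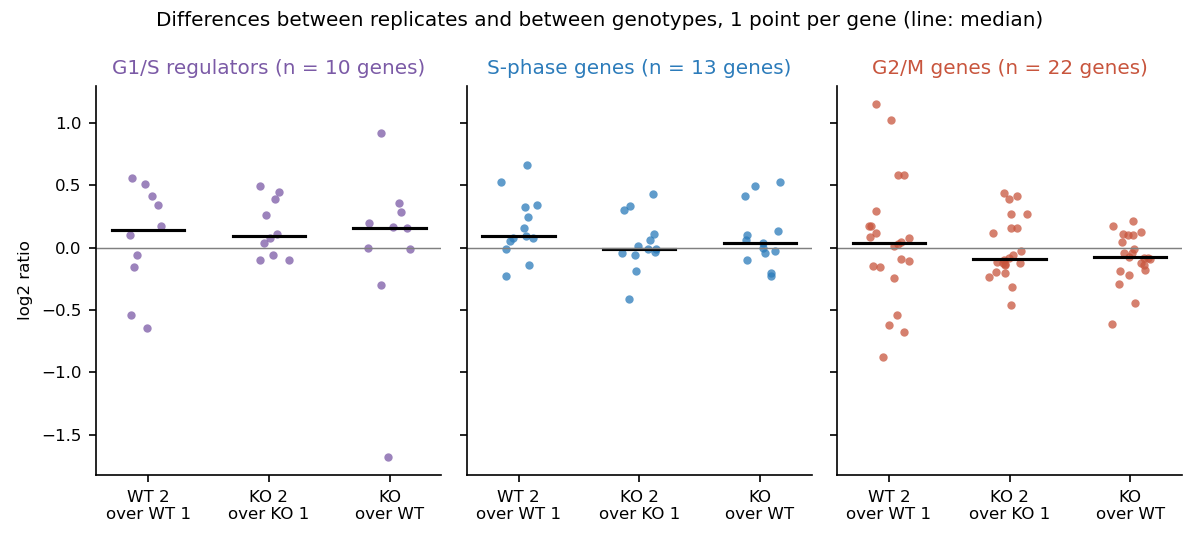
Log2 ratio (y axis) of WT 2 over WT 1, KO 2 over KO 1 and KO over WT for each G1/S regulator, S-phase gene and G2/M gene, 1 point per gene, with a line at the median. Except for *Ccnd3* and *Ccne2*, the genotype differences span no wider range than the differences between the WT libraries.

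The comparison of S-phase with G2/M genes asked whether the 2 phases were affected unequally. The S-phase median exceeded the G2/M median by 0.11 on the log2 scale, and no test was made because the genes of a list are not replicates. The size of this difference depended on single libraries, at 0.050 without WT 1, 0.060 without WT 2, 0.056 without KO 2 and 0.19 without KO 1. The summed CPM of the S-phase genes was 446 and 469 in WT and 452 and 472 in KO, and that of the G2/M genes was 941 and 889 in WT and 899.5 and 848 in KO. Their ratio was 0.474 in WT 1, 0.528 in WT 2, 0.503 in KO 1 and 0.557 in KO 2, so that the genotypes overlapped. The mean log2 level of the S-phase genes minus that of the G2/M genes was -0.24 and -0.11 in WT and -0.05 and -0.00 in KO, where both KO libraries lay above both WT libraries. A sum weights abundant genes and a mean of logs weights all genes alike, and the order of the libraries depended on this choice.

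Other genes of the cycle were taken from further lists by function. Of 115 genes listed, 112 were tested. Once the replicate number entered as a block, which called 13.3% of all tested genes, 2 were higher and 3 lower. At an unadjusted p under 0.05 with edgeR there were 12, beside 22.7% of all tested genes. Without the block, 1 rose and none fell by edgeR, beside 7.9% of all tested genes called. The one that rose was *Tk1*, encoding the thymidine kinase of the nucleotide salvage pathway, at 29 and 43 WT counts and 77 and 98 KO counts (log2 fold change 1.35, SE 0.31, edgeR adjusted p = 0.0368). It belongs to 38 further replication genes with a median of -0.01, among them *Uhrf1*, which had 242 and 312 WT counts and 322 and 280 KO counts (0.19, 95% interval -0.23 to 0.60). Of 43 further G2/M genes 42 were tested and none was called by edgeR, with a median of -0.10 and values from -0.56 to 1.72. Their activators *Foxm1* (185 and 201 counts in WT, 209 and 243 in KO) and *Mybl2*, which encodes B-MYB (32 and 55 in WT, 66 and 59 in KO), had log2 fold changes of 0.28 (95% interval -0.16 to 0.72) and 0.61 (95% interval -0.17 to 1.38).

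The inhibitors of the cycle had mostly negative values without a call. Of 10 CDK inhibitors and pocket proteins 8 were tested, with a median of -0.30 and 7 negative values. *Cdkn1c*, encoding p57, had 551 and 734 WT counts and 416 and 424 KO counts (-0.55, SE 0.14, edgeR adjusted p = 0.0616, or 0.0262 once blocked by replicate number). *Cdkn1b*, encoding p27, had 1313 and 1408 WT counts and 1027 and 991 KO counts (-0.38, adjusted p = 0.194). *Cdkn1a*, encoding p21, had 13 and 30 WT counts and 24 and 37 KO counts (0.59, 95% interval -0.55 to 1.73), and *Rb1*, the retinoblastoma gene, had 877 and 622 in WT and 671 and 579 in KO (-0.24, 95% interval -0.85 to 0.37). The 16 further G1/S and E2F factors had a median of -0.18 and the 8 genes of cell cycle exit one of -0.31, with no gene called by edgeR in either list and 0 and 3 at an unadjusted p under 0.05 (22.7% over all tested genes). Once blocked by replicate number, *Cdk5r1*, an activator gene of CDK5 on the exit list, was called lower (-0.44, edgeR adjusted p = 0.0434).

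**Figure D5:**
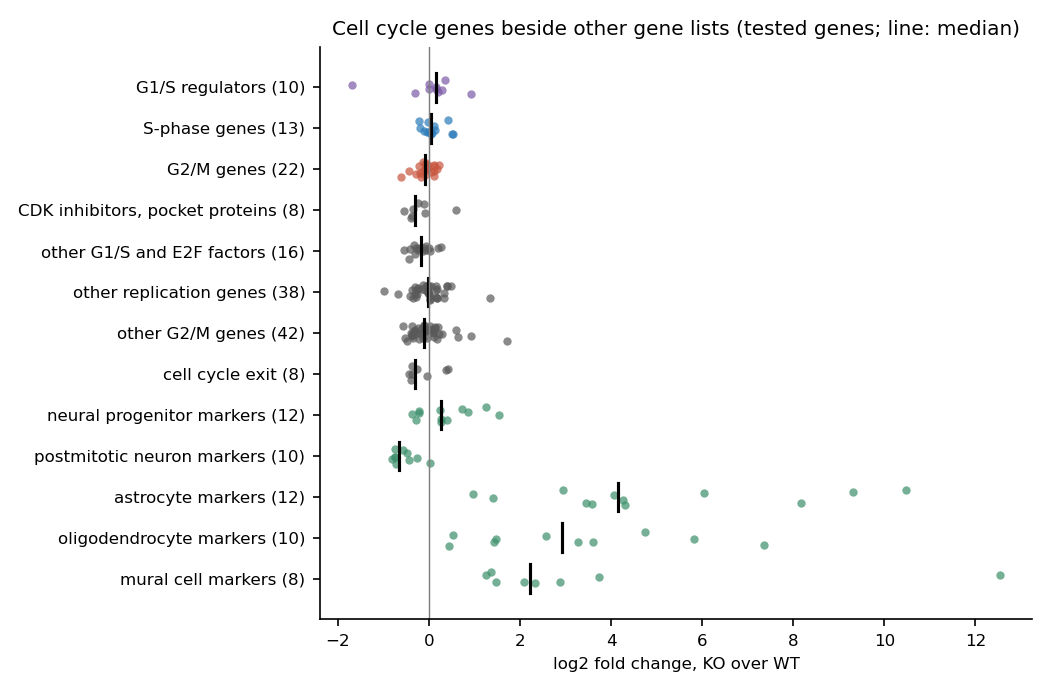
Log2 fold change of KO over WT (x axis) of each tested gene in the cycle groups, in the other cycle lists and in marker lists, with the number of tested genes in parentheses and a line at the median. Medians of the cycle groups and lists lie between -0.31 and 0.16, with single genes as far out as -1.68 and 1.72. Astrocyte markers (median 4.16), oligodendrocyte markers (2.93) and mural cell markers (2.21) lie far to the right.

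Markers of some other cell types differed strongly between the same libraries. All 12 astrocyte markers were called higher in KO, with summed levels of 279 to 293 CPM in WT and 3973 to 4144 in KO, and *Gfap* was at 0 in both WT libraries. Of 10 oligodendrocyte markers 8 were called higher (151 to 167 CPM summed in WT, 594 to 617 in KO; *Opalin* at 0 in both WT libraries), as were 6 of 8 mural cell markers (58.6 to 64.1 CPM in WT, 361 to 363 in KO; *Acta2* at 0 in both WT libraries). Of 5 oligodendrocyte precursor markers 1 was called higher and 4 had an unadjusted p under 0.05 (1283 to 1339 CPM summed in WT, 1631 to 1707 in KO), as was 1 of 8 tested microglia markers (30.2 to 38.1 CPM in WT, 64.3 to 64.8 in KO). None of 6 tested endothelial markers was called, with 3 at an unadjusted p under 0.05 (21.1 to 21.6 CPM in WT, 23.3 to 26.1 in KO). Lower in KO were 1 of 5 tested erythroid markers (30.8 to 44.7 CPM in WT, 18.9 to 19.2 in KO) and 1 of 5 tested choroid plexus markers (54.7 to 72.2 CPM in WT, 10.1 to 12.2 in KO). In the neural lineage, 8 of 12 progenitor markers had positive and 4 negative fold changes, with *Notch1* and *Hes1* called higher and 10 not called. Both KO values lay above both WT values in 7 of them and below in 2, and 5 had an unadjusted p under 0.05 with edgeR. Their summed levels were 1882 to 1950 CPM in WT and 2067 to 2127 in KO. Of 10 markers of postmitotic neurons 3 were called lower (*Stmn2*, *Elavl4* and *Syt1*), 8 had an unadjusted p under 0.05 and 9 had both KO values under both WT values. Summed levels of these 10 were 5770 to 6386 CPM in WT and 4267 to 4335 in KO. Over all tested genes, 7.33% were called higher and 0.57% lower, and 22.7% had an unadjusted p under 0.05. Both KO values lay above both WT values in 28.3% of all tested genes and below in 25.2%. None of 9 markers of GABAergic POA interneurons was called (3 at an unadjusted p under 0.05). Of these 9, 8 had negative fold changes, with a median of -0.32 and summed levels of 759 to 819 CPM in WT and 641 to 674 in KO. With the replicate number as a block, which called 13.3% of all tested genes, more markers were called. Higher were 4 of 5 oligodendrocyte precursor, 3 microglia, 7 mural cell and 4 progenitor markers, and lower were 5 neuron, 3 erythroid and 2 choroid plexus markers. Fitted fold changes of *Gfap*, *Opalin* and *Acta2* depend on the prior count, and with each set to its bound against 3 counts per WT library the medians were 4.16 for astrocyte, 2.67 for oligodendrocyte and 2.21 for mural cell markers. The part of these other cells in the values of *Ccnd3*, *Ccne2* and *Tk1* was not tested.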

How the data were processed

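The deposited files hold raw counts per Ensembl gene, 1 file per library, made by the authors. The submitters' processing notes name CASAVA 1.8.2, STAR 2.5.2a and featureCounts 1.5.0-p1 with mm10 and GRCm38. Their roles, the annotation and the strand setting are not given in the sources used here. Of 55573 identifiers, 55480 matched GENCODE M21, which gave symbols and exonic lengths.

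Counts were tested as deposited in R 4.3.3 with edgeR 4.0.16 (TMM, filterByExpr, quasi-likelihood test, genotype as the only term) on all 4 libraries. P-values were adjusted by Benjamini-Hochberg over 16832 tested genes, and the threshold was 0.05. Intervals are 95% intervals of the fitted log2 fold change. Log2 levels per library used CPM plus 0.5. A floor of 3 counts covers counting error only. DESeq2 1.42.0, limma-voom (limma 3.58.1), other scalings and filters, a replicate block, a length and GC offset (mgcv 1.9.3) and leaving out each library were alternatives. The procedure was tested on simulated data.

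Genes with values in every library are the called genes and, in each of the 3 groups, the 4 with the highest mean CPM and the 2 with the largest absolute fold change, plus *Cdkn1a*, *Cdkn1b*, *Cdkn1c*, *Rb1*, *Foxm1*, *Mybl2*, *Uhrf1* and *Dnmt1*. *Ccne1*, *Ccnb2*, *Cdk1*, *Cdt1*, *Aurka*, *Hmx3*, *Gad2*, *Ints8* and *Cdk5r1* were added after their values were seen. The 45 genes, the other lists and the markers were chosen with earlier results of these data known. Promoter sequences are from RefSeq (GRCm38.p6).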

Additional observations from a re-analysis of the deposited data

How the results depend on the processing

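*Ccnd3* and *Ccne2* were called in the same direction in all 11 other fits, with adjusted p from 0.000277 to 0.0312 and from 0.00011 to 0.0397, while these fits called 6.18% to 18.8% of all tested genes. In these fits the log2 fold change ranged from 0.91 to 1.03 for *Ccnd3* and from -1.69 to -1.25 for *Ccne2*. No S-phase or G2/M gene was called in these fits. At an adjusted p under 0.01, 0 of the 45 genes and 0 G1/S regulators were called, against 4.4% of all tested genes. The length and GC correction, with or without the replicate block, added *Cdk4* for 3 calls. With a library left out, the log2 fold change ranged from 0.79 to 1.06 for *Ccnd3* and from -1.99 to -1.32 for *Ccne2*.

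Replicate numbers are shared by the genotypes in the labels, without a stated litter or day. The same-numbered differences correlated at 0.137 over all genes and 0.288 over the 45 genes. With the replicate block the 45 genes again gave 2 calls, the same 2 genes (*Ccnd3* adjusted p 0.00536, *Ccne2* 0.00458), and the medians were 0.04 for S-phase and -0.07 for G2/M genes.

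The G2/M median of -0.08 became 0.041 with library size only, which moved the median of all tested genes from -0.03 to 0.08. It became -0.0025 with the length and GC correction and 0.013 when the block was added. The S-phase median minus the G2/M median stayed between 0.08 and 0.13 under the 13 alternatives without a library left out, and between 0.050 (without WT 1) and 0.19 (without KO 1) with a library left out.

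Small fitted values changed sign in these fits, all without a call. Among the 17 genes of the naming rule these were *Ccnd1* (0.11 with library size only, 0.038 with upper quartile, 0.00062 without mitochondrial and rRNA-like genes, 0.0039 without a filter, 0.035 with at least 10 counts in every library) and *Ccnd2* (0.10, 0.032 with upper quartile, 0.027 with at least 10 counts, 0.092 with the length and GC correction and 0.092 with the block added). *Mcm2* gave 0.10 with library size only, 0.035 with upper quartile, 0.000397 without a filter, 0.031 with at least 10 counts and 0.0040 with the length and GC correction. With library size only, *Mki67* gave 0.069 and *Top2a* 0.047. With the length and GC correction, without and with the block, *Mki67* gave 0.072 and 0.073, *Top2a* 0.13 and 0.13 and *Cenpf* 0.020 and 0.024. *Bub1*, *Mcm4*, *Mcm5*, *Cdc6*, *Ccnb2*, *Birc5*, *Cenpa*, *Ccna2* and *Bub1b*, outside that rule, also changed sign in at least 1 fit. The cause was not tested.

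With each library left out in turn, 1 to 6 of the 45 genes were called, 1 to 3 G1/S regulators, 0 to 1 S-phase genes and 0 to 3 G2/M genes. Over all tested genes these fits called 21.3% (without WT 1), 23.3% (without WT 2), 6.0% (without KO 1) and 5.37% (without KO 2), so that the 6 of 45 genes called without WT 1 were a smaller share than over all genes. The S-phase median ranged from -0.020 (without KO 2) to 0.11 (without KO 1), the G1/S median from 0.014 (without WT 1) to 0.19 and the G2/M median from -0.079 to -0.036. Values that changed sign ranged from -0.057 to 0.038 (*Ccnd1*), -0.047 to 0.043 (*Ccnd2*), -0.24 to 0.21 (*Mcm2*), -0.066 to 0.17 (*Mcm6*), -0.042 to 0.10 (*Rrm1*), -0.079 to 0.012 (*Mki67*), -0.20 to 0.049 (*Top2a*), -0.51 to 0.12 (*Cenpf*), -0.21 to 0.48 (*Kif11*) and -0.87 to 0.17 (*Ube2c*) among the 17 genes of the naming rule. Genes outside that rule changed sign as well, such as *Aurka*, which ranged from -0.66 to 0.54.

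Over all genes, 1329 were called, 92.8% of them higher in KO. The count was 2244 with the block (72.4% higher), 2756 with the length and GC correction (74.0%), 3166 with both (70.8%), 2363 without a filter (75.8%), 883 with at least 10 counts in every library and 951 to 4209 with a library left out (48.2% to 94.6%). With 2 libraries per genotype, and as few as 22 counts for a cycle gene (*Gins2* in WT 1), 35 of the 45 intervals lay within 1 log2 unit of 0.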
